A study of Mus musculus with 4 samples.

Results

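Pericytes and vascular smooth muscle cells are the mural cells of blood vessels: they lie on the outer face of the endothelium, share its basement membrane, and tune vessel diameter by contracting and relaxing. Smooth muscle cells wrap arterioles and larger vessels and are rich in contractile proteins such as smooth muscle actin and smooth muscle myosin, whereas pericytes sit on capillaries and venules, carry less contractile protein and are known for ATP-sensitive potassium channels and for the receptors PDGFRβ and NOTCH3. Rgs5 encodes a regulator of G protein signalling, a protein that shortens signals from vasoactive receptors, and is a commonly used mural cell marker.

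The cells described here were the 85 Rgs5-rich cells among 14181 barcodes of a single-cell RNA-seq library, or 1.03% of the 8256 cells kept after quality control. The library came from the pooled 2 tibiae, proximal and distal ends, of 1 male mouse at postnatal day 6 (P6). The mouse carried Col10a1Cre, a Rosa26-Tdtomato reporter, 1 Irx3 allele deleted by the Cre (Irx3 +/Δ) and 1 null allele of Irx5 (Irx5 +/-), the genotype labelled as the Irx3/5 heterozygous control, and every cell group described below came from this same mouse. Col10a1 drives the Cre recombinase in hypertrophic chondrocytes (HCs), the enlarged cartilage cells at the end of the growth plate, so the reporter marks these cells and their descendants. The diced bones were digested with dispase and collagenase type II, the study's methods give no sort of the P6 cells, and the 4 sequencing entries of the library were counted as 1 sample.

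A barcode was kept when it had at least 1600 genes and at most 10% of its unique molecular identifiers (UMIs, counts of captured RNA molecules) from mitochondrial genes. An Rgs5-rich cell then had at least 50 Rgs5 UMIs per 10000 UMIs, at most 1 UMI of the endothelial gene Cdh5, at most 1 UMI of the leukocyte gene Ptprc, under 20 per 10000 of the stromal chemokine gene Cxcl12 and under 50 per 10000 of the cartilage gene Col2a1. Of 94 cells that reached the Rgs5 level, 9 were removed by the other limits: 3 by Cdh5, 2 by Ptprc, 2 by Cxcl12 and 3 by Col2a1, with 1 cell over a pair of limits. The cells were thus chosen by their Rgs5, Cdh5, Ptprc, Cxcl12 and Col2a1 counts, and the values of these genes are given as a description only. The 3 cells just inside the Rgs5 limit had 50.04, 53.9 and 54.2 per 10000, and the 3 just outside had 48.9, 47.6 and 45.3. No gap therefore separated the sides of the limit, although 7881 of the 8256 cells kept had no Rgs5 UMI at all, 34 had between 10 and 30 per 10000 and 21 between 30 and 50.

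Each Rgs5-rich cell held 4082 to 24330 UMIs (median 8521) from 1875 to 5275 genes (median 3024), 814792 UMIs in all, and the median mitochondrial share was 5.77%. A single library of 1 mouse gives no biological replicate, and cells are not replicates, so no statistical test was run and no p-value is given. Levels are UMIs summed over a group of cells per 1000000 UMIs of that group (CPM), with exact Poisson 95% intervals that cover counting error only. Calls of higher or lower needed a 4-fold difference between 2 groups after 1 CPM was added to each, and a gene is counted as tested where one of them reached 20 CPM. The 2 Acta2 ranges compared further on also needed 20 UMIs together. The 5 genes of the selection rule were left out of every count of calls.

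The groups of cells kept from the same library that served for comparison were 248 Cxcl12-rich stromal cells (Cxcl12 at least 20 per 10000), 812 endothelial cells (at least 2 Cdh5 UMIs), 136 Aspn-rich fibroblasts (Aspn at least 20 per 10000) and the 8171 other cells kept, which include the first 3 groups. Each of the first 3 had Rgs5 under 50 per 10000 and met the limits on Ptprc and Col2a1, and the stromal cells and fibroblasts also met that on Cdh5. Their median depths were 10047.5, 9107.5, 9151.5 and 14052 UMIs. A further 1891 leukocytes (at least 2 Ptprc UMIs, median 12709 UMIs) and 671 erythroid cells (at least 2 UMIs of the haem synthesis gene Alas2, median 14015 UMIs) served as cells that should lack mural transcripts. Both had Rgs5 under 50 per 10000, and the erythroid cells met the limit on Ptprc. No limit on Cdh5, Cxcl12 or Col2a1 was set for the erythroid cells, so they may overlap the other groups. The genes Rgs5, Cxcl12, Cdh5 and Ptprc, which chose groups, differ by construction and are not read as results. Aspn, which chose the fibroblasts, is not read as a result against them and is counted in the other comparisons. All comparisons share the 85 Rgs5-rich cells and are not independent of each other.

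The cells carried the markers of both mural cell types. Abcc9, the sulphonylurea receptor subunit of a potassium channel, stood at 578 CPM (527 to 633) against 16.9 in the other cells kept, 122 in stromal cells, 106 in endothelial cells, 6.04 in fibroblasts and 2.92 in leukocytes. Per cell, Abcc9 ranged from 0 to 26.1 per 10000 with a median of 5.78, and 78 of 85 cells had a UMI of it. Acta2, smooth muscle actin, stood at 3062 CPM (2943 to 3185) against 31.8, and ranged from 0 to 235 per 10000 with a median of 6.88. The 2 markers were spread differently: Abcc9 was low to moderate in nearly every cell, whereas Acta2 was absent or near absent in many cells and very high in others.

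Leukocytes and erythroid cells, which should lack these transcripts, showed far lower shares. With each cell thinned to 3000 UMIs, and no cell too shallow for it, an Abcc9 UMI was seen in 77.6% of Rgs5-rich cells (exact interval 67.3% to 86.0%) and in 0.635% of leukocytes; before thinning the shares were 91.8% and 2.33%. The thinned shares for Acta2 were 62.4% (51.2% to 72.6%) and 1.37%, against 76.5% and 4.76% before thinning. Myh11, smooth muscle myosin heavy chain, was seen in 43.5% (32.8% to 54.7%) and 0.212% after thinning, and in 60.0% and 0.317% before. In erythroid cells the shares after and before thinning were 1.79% and 6.11% for Abcc9, 1.64% and 5.07% for Acta2, and 0.298% and 0.447% for Myh11. An Abcc9 UMI was also seen in 27.8% of stromal and 18.3% of endothelial cells after thinning, and in 57.3% and 36.3% before. Clopper-Pearson intervals are used throughout for shares.

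On the mouse genome (GRCm38, GENCODE release M21) Rgs5 lies on chromosome 1 at chr1:169655501-169695813, plus strand, and its relative Rgs4 lies 45664 bases further on. Rgs4, which was not in the selection rule, stood at 237 CPM against 6.0 in the other cells. Abcc9 (chr6:142587862-142702315, minus strand) lies 16248 bases from Kcnj8 (chr6:142564837-142571614, minus strand), the pore subunit of the same channel. Gucy1b1 and Gucy1a1, the subunits of soluble guanylate cyclase, are 17738 bases apart on chromosome 3. All of these neighbours were high in the Rgs5-rich cells. Acta2 lies at chr19:34241090-34255590, minus strand, and Myh11 at chr16:14194535-14291372, minus strand.

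Against the 8171 other cells kept, 477 of 7002 genes tested were called higher in Rgs5-rich cells (6.81% of genes tested) and 438 lower (6.26%). The median log2 ratio over all genes tested was 0.22. The 20 genes with the largest fold, among those with at least 100 CPM, were Myh11, Olfr558, Higd1b, Acta2, Actg2, Tagln, Cygb, Notch3, Aoc3, Col5a3, Gucy1b1, Parm1, Rarres2, Myl9, Ntm, Mylk, Thy1, Gucy1a1, Rgs4 and Kcnj8. Of these, 6 encode proteins of the contractile apparatus (Myh11, Acta2, Actg2, Tagln, Myl9, Mylk). Myh11 led the list at 593 CPM (541 to 648) against 1.99, and Olfr558, an odorant receptor gene, followed at 129 against 0.278. Cygb, the oxygen-binding globin cytoglobin, reached 415 against 4.36, and Aoc3, a cell surface amine oxidase, 394 against 5.25.

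**Figure D1:**
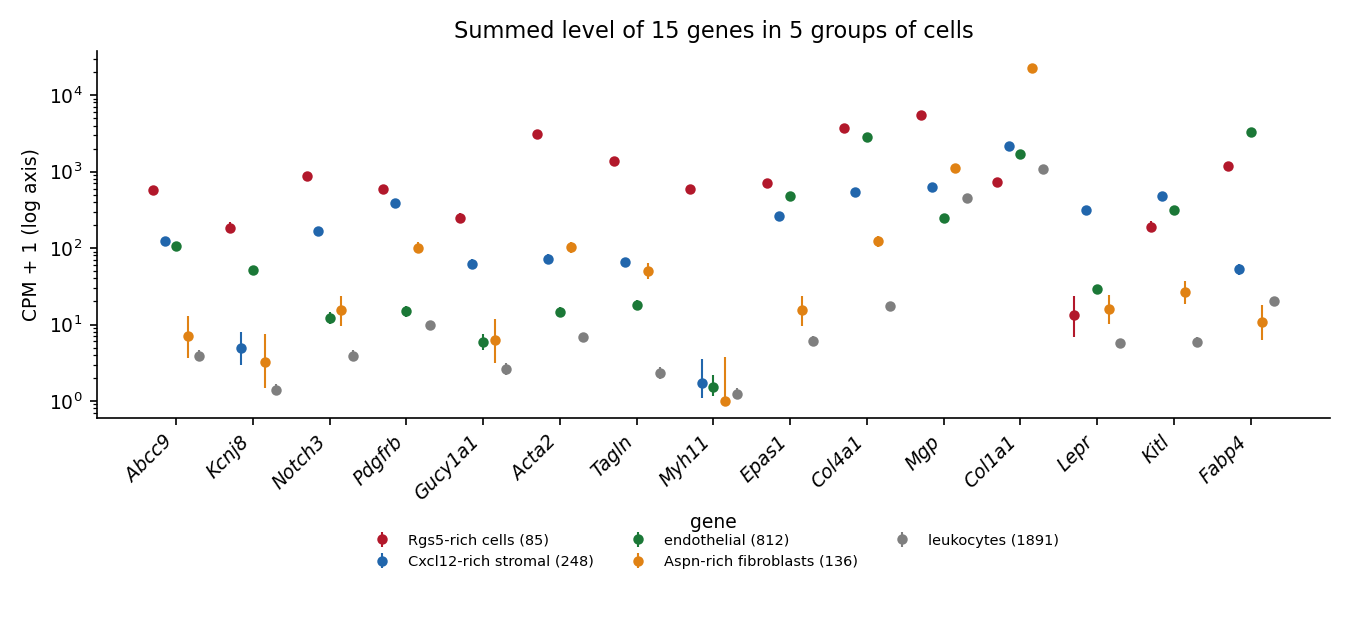
Summed level (CPM with 1 added, log axis) of 15 genes in the 85 Rgs5-rich cells and in the stromal cells, endothelial cells, fibroblasts and leukocytes of the library; points are sums over cells and bars exact Poisson 95% intervals, which cover counting error only. Myh11 stood at 593 CPM in Rgs5-rich cells and at 0.714 CPM or less in Cxcl12-rich stromal cells, endothelial cells, Aspn-rich fibroblasts and leukocytes, whereas Col1a1 was highest in Aspn-rich fibroblasts and Fabp4 in endothelial cells.

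Receptors and signalling proteins of pericytes are described before the contractile genes. Of 20 pericyte markers, 17 were tested against the other cells kept, 14 were called higher and none lower, with a median log2 ratio of 4.52 against 0.22 over all genes. The same 14 of 17 count was reached against Cxcl12-rich stromal cells, where 3.51% of 6858 genes were called higher and 3.85% lower, with a median over all genes of 0.05. Against endothelial cells (5.56% of 6991 genes higher, 6.21% lower, median 0.03) the count was again 14 of 17, and against Aspn-rich fibroblasts (5.92% of 6961 genes higher, 5.46% lower, median 0.21) it was 16 of 18, with 1 lower. The genes that missed the 4-fold limit differed from group to group.

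Notch3, the Notch receptor of mural cells, stood at 879 CPM (816 to 946) and was seen in 83 of 85 cells, with a per-cell median of 8.46 per 10000 and a highest value of 24.2. It stood at 168 CPM in stromal cells, 14.3 in fibroblasts and 11.3 in endothelial cells. Pdgfrb, the receptor for endothelial PDGF-B, was seen in all 85 cells at 584 CPM, against 100.4 in fibroblasts and 13.9 in endothelial cells. In the stromal cells Pdgfrb stood at 383 CPM, a log2 ratio of only 0.61, so it stayed within 4-fold there. Mcam, the adhesion molecule CD146, stood at 623 CPM against 33.9 in stromal cells and 1.51 in fibroblasts, and at 374 in endothelial cells, within 4-fold.

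Among the pericyte markers, 3 missed the limit against the other cells kept. Ndufa4l2 stood at 874 CPM against 348, Cox4i2 at 313 against 129.6, and the proteoglycan gene Cspg4 (NG2) at 287 against 149.9. All 3 were called higher against stromal cells, endothelial cells and fibroblasts. Vtn, encoding vitronectin, and the peptidase gene Anpep were below 20 CPM, with UMIs in 10 and 6 cells. In the fibroblasts Anpep stood at 43.8 CPM, and it was the marker called lower there.

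Contractile genes followed the same direction. Of 20 smooth muscle contractile genes, 18 were tested against the other cells kept, and 17 were called higher and none lower, with a median log2 ratio of 4.83. The counts were 12 of 18 against stromal cells, 15 of 18 against endothelial cells and 14 of 18 against fibroblasts, with none lower in any of them. Tagln, the actin-binding protein transgelin, stood at 1355 CPM against 14.6, Myl9, the regulatory myosin light chain, at 1646 against 38.0, and Mylk, the kinase that switches it on, at 689.7 against 17.1. Several of these genes stayed within 4-fold of stromal cells, which held 573 CPM of Myl9, 200.2 of Mylk and, for the tropomyosin gene Tpm1 (1413 CPM in the Rgs5-rich cells), 1811. A Myl9 UMI was seen in 69.4% of Rgs5-rich and 71.0% of stromal cells after thinning, and in 88.2% and 87.9% before. In the 19 cells with at most 5% mitochondrial UMIs Tagln stood at 568 CPM, Acta2 at 2016, Myl9 at 996 and Myh11 at 349.8. Cnn1 (calponin) and Lmod1 (leiomodin) each stood at 41.7 CPM and were called higher in all 4 comparisons, although Cnn1 stood at 4.86 CPM in those 19 cells and was then called in none. The transcriptional coactivator gene Myocd stood at 11.0 CPM, and Smtn (smoothelin) at 20.9 against 30.5. No UMI of Pln, encoding phospholamban, was found, which allows up to 3.68 CPM by the floor of 3 counts.

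Myh11 led the genes higher than in stromal cells, endothelial cells and fibroblasts alike. It was at 0.714 CPM in stromal cells and 0.510 in endothelial cells, and fibroblasts had none, so the level was at least 262-fold higher against the floor of 3 counts over that group. Per cell it ran from 0 to 69.2 per 10000 with a median of 1.58, and the 34 cells without a UMI cannot be told from low expression at this depth. Olfr558 had no UMI in stromal cells or fibroblasts and was at least 120-fold and 56.9-fold higher.

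The CArG box, the DNA word bound by serum response factor with myocardin, is the best known control element of smooth muscle contractile genes. Short stretches before the start of Acta2 and Myl9, 2 of the 3 listed genes found with a box, are shown. Their levels rose and fell together across the cells, as described further on. Tagln, which followed Acta2 more closely than Myl9 did, and Tpm2 were not among the genes found with a box. Crip1, which also held a box, is not shown. A CArG box was searched as CC, then 6 bases that are each A or T, then GG, on either strand (the word reads as the same pattern on both), in the 250 bases before each RefSeq start on GRCm38.p6, and again with 1 of the 6 central bases a G or C. Each line gives 30 bases on the strand of the gene, 5′ to 3′, with the box in capitals.
Acta2, 84 bases before the start, minus strand, chr19:34255438-34255467: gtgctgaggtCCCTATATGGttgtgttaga
Acta2, 34 bases before the start, minus strand, chr19:34255388-34255417: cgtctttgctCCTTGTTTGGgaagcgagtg
Myl9, 161 bases before the start, plus strand, chr2:156775293-156775322: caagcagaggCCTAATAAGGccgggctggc
Myl9, 99 bases before the start, plus strand, chr2:156775355-156775384: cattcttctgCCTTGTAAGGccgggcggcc

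The Myl9 box 161 bases before the start held A or T at all 6 central positions, and the other 3 held 1 G or C. GENCODE M21 has a longer Acta2 transcript whose first exon covers both Acta2 boxes, whereas both Myl9 boxes lie before its annotated start. Of the 20 contractile genes 16 had a sequence, and 3 of them (Acta2, Myl9 and Crip1) held a box of either kind, or 17.6% of the list's windows. Over all 32851 windows of this length, 1.47% held a box with only A and T, 7.24% held one with a single G or C, and 8.59% held either. A match is a description of letters and does not show a bound site, and the 13 genes without one may carry boxes outside these windows.

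Potassium channel genes were led by the pair that forms the ATP-sensitive channel. Of 10 listed, 5 could be tested against the other cells kept, with 4 higher and 1 lower. The counts were 3 of 4 higher against stromal cells and 3 of 4 against endothelial cells, none lower. Against fibroblasts 3 of 5 were called higher and 1 lower (Kcnma1). Abcc9 and Kcnk3 were called higher in all of these, whereas Kcnj8 was within 4-fold of endothelial cells, where Kcne4 was called. Kcnj8 stood at 184 CPM (156 to 216) against 4.69, with 49.9 in endothelial cells and 3.93 in stromal cells. A Kcnj8 UMI was seen in 52 of 85 cells, and in 28.2% of them after thinning against 0.106% of leukocytes. The pancreatic partners of the family were at or near 0, with no Kcnj11 UMI and 1 Abcc8 UMI. Kcnk3, a background potassium channel, stood at 76.1 CPM against 0.286, and the channel regulator Kcne4 at 58.9 against 4.07. Kcne4 was within 4-fold of stromal cells (53.2 CPM) and fibroblasts (29.4), and fell to 29.1 CPM with at most 5% mitochondrial UMIs. Kcnma1, the large-conductance calcium-activated channel, was the gene called lower, with 1 UMI in all 85 cells against 33.1 CPM elsewhere.

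Receptors for vasoactive signals were few. Of 33 receptor genes, 8 were tested and 4 called higher, none lower: S1pr3, a sphingosine 1-phosphate receptor, at 345 CPM against 17.7, Ednra, endothelin receptor A, at 129 against 5.86, Agtr1a, the angiotensin II receptor, at 89.6 against 2.13, and Adra2a, an α2 adrenergic receptor, at 78.5 against 2.18. Against stromal cells 3 of 9 were called higher (Ednrb, Agtr1a and Adra2a), with S1pr3 (189 CPM there) and Ednra (78.9) within 4-fold, and with at most 5% mitochondrial UMIs S1pr3 fell to 209 CPM. Against endothelial cells 4 of 9 were called higher and 2 lower (Ednrb and Calcrl). Against fibroblasts 5 of 9 were called higher and 1 lower (Agtr2). No UMI was found for 8 of the 33, among them Adra1d, Adra2b and Htr2a. Ednrb, the second endothelin receptor, stood at 51.5 CPM, below the 264 of endothelial cells, and the parathyroid hormone receptor Pth1r at 83.5 against 244 in the other cells. In the RGS family, which damps such receptors, 12 of 21 genes had a UMI. Besides Rgs5, 7 were tested, Rgs4 and Rgs16 were called higher and the leukocyte gene Rgs1 lower (none higher and Rgs3 lower against stromal cells), and Rgs2 stood at 94.5 CPM against 48.0.

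The machinery that relaxes smooth muscle in response to nitric oxide followed, with differences between the comparisons. All 8 genes tested of a list of 10 were called higher than in the other cells kept and than in fibroblasts. Against stromal cells 6 of 8 were called higher, with Pde5a and Pde1a within 4-fold and the call of Gucy1a1 lost with at most 5% mitochondrial UMIs (276.9 against 70.5 CPM), and against endothelial cells 8 of 9 were called higher and Npr1 lower. Gucy1a1 stood at 249 CPM against 5.96 and its partner Gucy1b1 at 141 against 2.08. The cGMP-dependent kinase gene Prkg1 stood at 70.0 against 5.67, its partner Mrvi1 at 61.4 against 0.638, and the phosphodiesterase genes Pde3a and Pde5a at 222 and 151 against 16.8 and 7.50. The natriuretic peptide receptor genes did not follow: Npr1 had 5 UMIs and Npr3 none, and endothelial cells held 131 CPM of Npr1. Of 16 calcium handling genes, 11 were tested and 6 called higher, among them Ano1, a calcium-activated chloride channel (106 against 6.04 CPM), and the L-type channel gene Cacna1c (23.3 against 3.77), whose call was lost with at most 5% mitochondrial UMIs, at 19.4 CPM. The counts were 3 of 10 against stromal cells, 5 of 11 against endothelial cells and 4 of 11 against fibroblasts, none lower, and Cacna1c was within 4-fold of stromal cells (9.28 CPM) and fibroblasts (15.9).

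Several ligands and receptors that link mural cells to endothelium were divided between the 2 cell groups. PDGF-B is made by endothelium and read by PDGFRβ on mural cells: Pdgfb stood at 129 CPM in endothelial cells and 18.4 in Rgs5-rich cells, and Pdgfrb at 13.9 and 584. Pdgfa was not divided in this way: it stood at 222 CPM in the Rgs5-rich cells and 109 in endothelial cells, within 4-fold. In the other cells kept Pdgfa stood at 53.0. The receptor gene Pdgfra had 3 UMIs in 2 cells, against 96.3 CPM in stromal cells and 116 in fibroblasts. Of the angiopoietins, Angpt2 stood at 153 CPM and was called higher than in the other cells kept (5.93) and endothelial cells (23.4). Angpt1, which keeps vessels quiescent, stood at 23.3 CPM, against 116 in stromal cells and 4.89 in endothelial cells. Angpt1 was called higher than in endothelial cells, a call lost with at most 5% mitochondrial UMIs. Tek, encoding the angiopoietin receptor, had no UMI here and stood at 201 CPM in endothelial cells, at least 54.6-fold higher.

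Some of the Notch genes were also divided between these cell groups. Of 16 listed, 11 were tested against the other cells kept and 7 called higher, none lower: the receptor Notch3, the ligand Jag1, the targets Hey1, Hey2, Heyl and Nrarp, and Nrip2. Against stromal cells 4 of 11 were called higher and against fibroblasts 6 of 11, none lower. Heyl stood at 182 CPM against 16.0 in the other cells and 3.87 in endothelial cells. Against endothelial cells, 4 of 15 were called higher (Notch3, Heyl, Hey2 and Nrip2) and 4 lower (Notch4, Jag2, Dll1 and Dll4). The other 7, the ligand Jag1 among them, were called in neither direction. Dll4 and Jag2 had no UMI in Rgs5-rich cells and stood at 74.3 and 45.3 CPM in endothelial cells. Of 19 TGF-β and BMP genes, 15 were tested, and Tgfb2 is an example of the 13 that stayed within 4-fold, at 229.5 CPM against 59.9. The 2 called higher were Id4 (190.2 against 27.1) and Bmp5 (60.1 against 13.7). Stromal cells held more of both, 242 and 98.8 CPM, within 4-fold. Against stromal cells 2 of 19 were called higher (Tgfb2 and Inhba) and 4 lower. The counts were 5 higher and 4 lower of 17 against endothelial cells, and 1 higher and 3 lower of 18 against fibroblasts.

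Among transcription factors of mural cells, 22 of 31 were tested against the other cells kept, and 14 were called higher and none lower. The counts were 6 higher and 1 lower of 22 against stromal cells, 12 higher and none lower of 23 against endothelial cells, and 6 higher and 2 lower of 24 against fibroblasts. Epas1, the oxygen-regulated factor HIF-2α, stood at 704 CPM (648 to 765) against 53.5, and the B-lineage and stromal factor Ebf1 at 1171 against 198. Neither was called against stromal cells, which held 263 CPM of Epas1 and 622 of Ebf1, and Epas1 stood at 475 in endothelial cells. Nr2f2 (COUP-TFII), a factor of venous endothelium, stood at 248 CPM, at 129 in endothelial cells and at 8.92 in stromal cells. Its relative Nr2f1 stood at 87.1 against 1.16 in the others, Tbx2 at 130.1 against 10.3, Foxs1 at 81.0 against 1.88 and Tbx18 at 49.1 against 5.63. Tbx2 and Tbx18 were within 4-fold of stromal cells (35.7 and 18.9 CPM) and of fibroblasts (46.8 and 45.3). The forebrain and heart mural factors Foxf2, Zic1 and Tcf21 were at 4 UMIs, none and none. Srf, whose protein binds the CArG box, stood at 43.0 CPM against 28.1.

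Among genes of oxygen use, the pericyte markers Ndufa4l2, Cox4i2 and Higd1b are paralogues of the widely expressed mitochondrial genes Ndufa4, Cox4i1 and Higd1a. Ndufa4, a subunit of the respiratory chain, stood at 83.5 CPM (64.8 to 106) in Rgs5-rich cells against 462 in the other cells kept, 624 in stromal cells, 543 in endothelial cells and 379 in fibroblasts, and was called lower in all 4 comparisons. With the Rgs5 limit set at 30 per 10000 it stood at 141 CPM, within 4-fold of the other cells kept. Higd1a stood at 110.5 CPM against 658 in the other cells, called lower there and in none of the comparisons with stromal cells, endothelial cells and fibroblasts. Cox4i1, in contrast, stood at 1096 CPM, close to the 929 of the other cells. Higd1b, at 109 CPM, had no UMI in stromal cells or fibroblasts, at least 102-fold and 48.2-fold higher.

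The cells were rich in basement membrane genes. Of 20 listed, 16 were tested against the other cells kept, and 12 were called higher and none lower, with 6 of 16 higher and none lower both against stromal cells and against fibroblasts. The type IV collagen genes Col4a1 and Col4a2 stood at 3756 and 1629 CPM, near the 2837 and 1467 of endothelial cells, and Col18a1 at 1076 against 686. Against endothelial cells only 1 of the 16 was called higher (Lama2, a laminin chain of muscle, 33.1 against 4.08, a call lost with at most 5% mitochondrial UMIs) and 2 lower (Col15a1 and Hspg2). Every cell had Col4a1, from 6.48 to 90.3 per 10000 with a median of 38.0.

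Interstitial matrix genes were mixed. Of 22 tested against the other cells kept, 6 were called higher (Col3a1, Col6a1, Col6a2, Fbn1, Eln and Aspn). Another 4 were called lower (Col1a1, Col1a2, Dcn and Lum), and the median log2 ratio was 1.02. Most of Eln's UMIs came from a few cells, as given further on. Against endothelial cells 10 of 22 were called higher and 2 lower, with a median of 1.86, and against stromal cells 3 were called higher and 6 lower of 22, with a median of -0.28. Against Aspn-rich fibroblasts, 13 of the 22 genes other than Aspn were called lower and 1 higher, Mgp, an inhibitor of calcification, at 5555 CPM against 1104. Aspn, which chose the fibroblasts, stood at 507 CPM in the Rgs5-rich cells and 120.3 in stromal cells. Mgp was also the most abundant gene of this list in the Rgs5-rich cells, with a per-cell median of 52.8 per 10000, against 637 CPM in stromal cells and 249.7 in endothelial cells. Col5a3, a minor fibrillar collagen, stood at 755 CPM against 134 in fibroblasts.

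Of 15 adhesion and junction genes tested, 9 were called higher than in the other cells kept and 1 lower. The counts were 7 higher and 2 lower of 15 against stromal cells, 5 higher and 3 lower of 18 against endothelial cells, and 8 higher and 2 lower of 16 against fibroblasts. Itga1, a collagen-binding integrin chain, stood at 876 CPM against 49.2, with 284 in stromal cells, the laminin-binding Itga7 at 123 against 3.13, and the connexin 45 gene Gjc1 at 309 against 12.7. Connexin 43 (Gja1) was called lower, at 18.4 CPM against 139, and stood at 795 in stromal cells and 290.1 in endothelial cells. The junction protein gene Esam, shared with endothelium, stood at 185 CPM, between the 2.50 of stromal cells and the 431 of endothelial cells.

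Against the Cxcl12-rich stromal cells, the 10 genes with the largest fold upward were Myh11, Crispld2, Sparcl1, Olfr558, Higd1b, Parm1, Ntrk2, Cav1, Tspan15 and Procr, and the 10 downward were Esm1, Kng1, Wisp2, Adipoq, Kng2, Cxcl14, Kcnk2, Limch1, Aldh1a2 and Mmp13. Sparcl1, an adhesion-modulating matrix protein, stood at 554 CPM against 2.85, and Ntrk2, a neurotrophin receptor, at 102 against none, at least 95.2-fold higher. Other groups shared both genes: endothelial cells held 465 CPM of Sparcl1 and fibroblasts 37.0 of Ntrk2, each within 4-fold. Of 14 markers of Cxcl12-abundant stromal cells tested, none was called higher and 11 were called lower, the exceptions being Lpl, Foxc1 and Kitl. The leptin receptor gene Lepr stood at 12.3 CPM against 312. Lpl, encoding lipoprotein lipase, stood at 882 against 1687, a log2 ratio of -0.93.

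Ligands that act on marrow cells differed between these groups as well. Of 14 tested, 8 were lower in Rgs5-rich than in stromal cells, among them Il7, with no UMI, Csf1 at 22.1 CPM against 273, and Tnfsf11 (RANKL) at 27.0 against 274. Kitl, stem cell factor, stayed within 4-fold at 189 against 479. The 3 called higher were Il6 at 322 against 58.2 (179.7 against 62.9, and no longer called, with at most 5% mitochondrial UMIs), Dlk1, a membrane protein related to Notch ligands, at 341 against 5.35, and Ccl11, whose 28 UMIs came from 3 cells. Dlk1 was seen in 52 of 85 cells and was also called higher than in endothelial cells, at 3.36 CPM. Fibroblasts held 146 CPM of Dlk1, within 4-fold of the Rgs5-rich cells. Against the other cells kept, 6 of 12 of these ligands were called higher and 1 lower. The counts were 4 higher and 1 lower of 12 against endothelial cells, and 4 higher and 2 lower of 13 against fibroblasts.

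Against endothelial cells the largest folds upward were Myh11, Acta2, Actg2, Olfr558, Parm1, Higd1b, Dlk1, Tagln, Notch3 and Tpm2, and downward Cldn5, Gpihbp1, Selp, Aplnr, Ctla2a, Adgrl4, Cd34, Kdr, Cyyr1 and Sox7. All 13 endothelial markers tested were lower, and the list without Cdh5, which chose the endothelial cells, summed to 97.0 CPM against 7716 CPM in endothelial cells. Emcn, encoding the sialomucin endomucin, was the most abundant at 47.9 CPM, seen in 21 cells, against 1118 CPM in endothelial cells. Fabp4, a fatty acid-binding protein of capillary endothelium and fat, stood at 1193 and 3307 CPM, within 4-fold, whereas the fat cell genes Plin1, Adipoq, Cidec and Lep had 3, 1, 0 and 0 UMIs. With at most 5% mitochondrial UMIs Fabp4 stood at 559 CPM, called lower than the 3554 of endothelial cells and no longer higher than the 191 of the other cells kept. Of 19 listed Irx, Hox and related genes of the hindlimb, 5 were tested against endothelial cells, where 5.56% of all genes were called higher. Of these, 4 (Hoxa9, Hoxa10, Hoxc9 and Hoxc10) were called higher, for example Hoxc9 at 34.4 CPM against 1.73. In the other comparisons none was called higher. None of 5 was lower than in the other cells kept, and of 6 Irx5 was lower than in stromal cells. Of 7 tested against fibroblasts, Tbx4 and Pitx1 were lower. Irx3, of which the Cre deletes 1 allele in HCs and their descendants, stood at 39.3 CPM, and Irx5 at 4.91 from 4 UMIs.

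Against Aspn-rich fibroblasts the largest folds upward were Myh11, Tinagl1, Mcam, Olfr558, Fabp4, Higd1b, Gcnt2, Angpt2, Abcc9 and Apold1, and downward Mfap4, Tnn, Igfbp6, Ly6a, Sema3c, Fndc1, 1500015O10Rik, Thbs4, Clec3b and Ostn. Tinagl1, a matrix protein that binds integrins, stood at 357 CPM against no UMI, at least 158-fold higher, although endothelial cells held 155, within 4-fold. Mfap4, an elastic microfibril protein, had no UMI in Rgs5-rich cells against 648 CPM in fibroblasts. All 11 tendon and fibroblast markers other than Aspn, which chose the fibroblasts, were lower, 6 of them with no UMI. Thy1, a surface protein of fibroblasts, did not separate the groups, at 191 and 131 CPM.

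Markers of other cell types were read in the same way. Col2a1, limited by the rule, stood at 508 CPM in Rgs5-rich cells, 544 in stromal cells and 516 in endothelial cells, and all 11 other chondrocyte genes tested were lower than in the other cells kept. Against stromal and endothelial cells none of 10 chondrocyte genes was called in either direction. The chondrocyte list summed to 1386 CPM, with Col2a1 its most abundant gene. Osteoblast markers summed to 1813 CPM, of which Spp1 gave 758 and Col1a1 733, while Phex had no UMI and Ifitm5 had 2. The list summed to 10075 CPM in the other cells kept, with 6 of 11 genes tested called lower (6.26% of all genes). In stromal cells it summed to 13475 CPM, with 8 of 9 lower (3.85% of all genes). None was called higher in any of the 4 comparisons. Leukocyte markers summed to 1200.3 CPM, and to 223 without the 8 cells described next, led by S100a9 at 519. Of 13 tested against the other cells kept, 12 were called lower and none higher, whereas against fibroblasts 3 of 8 were called higher and 1 lower. Erythroid markers summed to 27466 CPM, and to 815 without those 8 cells, led by Hbb-bs at 14564 against 12915 in the other cells. For skeletal muscle, 8 of 12 markers had no UMI, and for Schwann cells 4 of 7, among them Sox10. The neurotrophin receptor gene Ngfr stood at 31.9 CPM against 0.476, and at 19.4 CPM, under the level tested, with at most 5% mitochondrial UMIs.

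A few cells carried most of the Hbb-bs, S100a9 and Spp1 counts. Hbb-bs stood at 2563, 2244 and 2092 per 10000 in 3 cells and at 105 in a further cell, against a median of 3.66. S100a9 reached 319 per 10000 in 1 cell, which held 86.1% of its UMIs, and Spp1 348 in another, which held 73.1%. Ighm, the immunoglobulin heavy chain gene, was seen in 2 cells at 15.5 per 10000 each. Without these 8 cells Hbb-bs fell to 424 CPM, S100a9 to 67.5 and Spp1 to 221. In the 19 cells with at most 5% mitochondrial UMIs, Hbb-bs stood at 55963 CPM, S100a9 at 1841 and Spp1 at 97.2. The Scrublet doublet caller marked 588 of all barcodes (4.15%) and 1 of the 85. What part doublets or free RNA had in these counts was not tested, and the 8 cells were kept, with values without them given where they moved by over 1.5 times.

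Contractile genes varied widely among the 85 cells. The 85 cells were ranked by Acta2 per 10000 and divided into 29 Acta2-low cells (0 to 2.07), 28 Acta2-middle cells (2.37 to 32.6) and 28 Acta2-high cells (34.0 to 235), and 20 of the Acta2-low cells had no Acta2 UMI. The ranking was continuous, so these are ranges of 1 gene and not cell types. Median depth was 7127, 9612 and 9840 UMIs, and Acta2 and total UMIs correlated at r = 0.348 over the 85 cells. Rgs5 stood at 11336, 12513 and 13763 CPM in the Acta2-low, Acta2-middle and Acta2-high cells. The selection rule cut off its range, so these values are a description only.

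**Figure D2:**
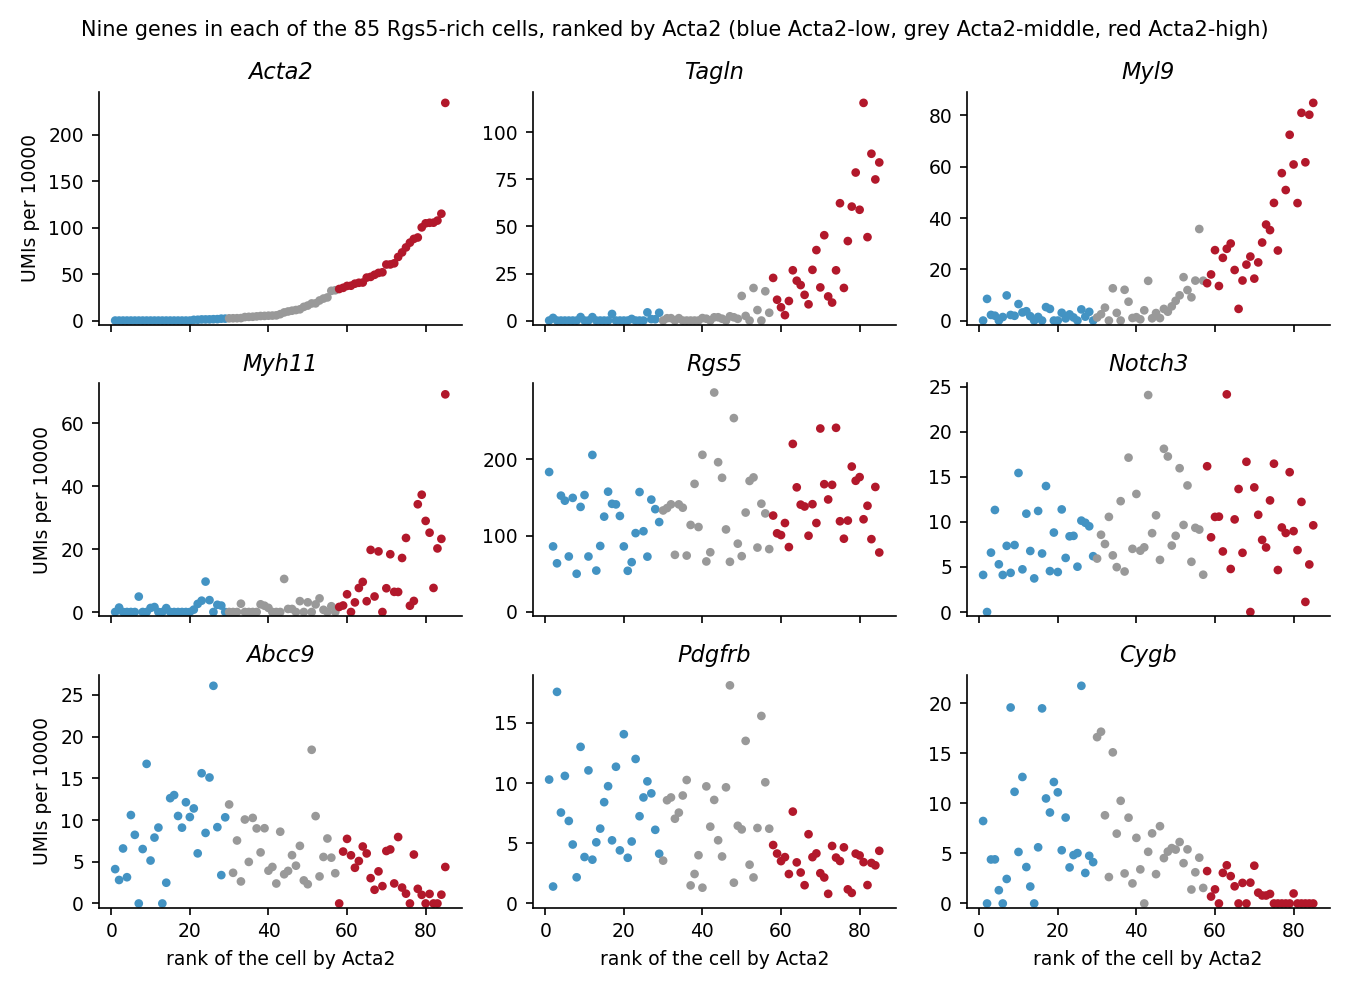
Level in UMIs per 10000 (vertical axes, linear) of 9 genes in each of the 85 Rgs5-rich cells, ranked from left to right by Acta2; each point is 1 cell, coloured by Acta2 range (blue low, grey middle, red high). Tagln, Myl9 and Myh11 climb with Acta2, Rgs5 and Notch3 are spread over the whole ranking, and Abcc9, Pdgfrb and Cygb are lower at the Acta2-rich end.

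Between Acta2-high and Acta2-low cells, 63 of 4222 genes were called higher in the Acta2-high cells (1.49%) and 48 lower (1.14%), Acta2 not counted, with a median log2 ratio of 0.03 over all genes tested. Tagln stood at 3365 CPM in Acta2-high cells against 54.7 in Acta2-low cells, and per cell at 2.89 to 116 (median 26.7) against 0 to 4.35 (median 0). For Tagln and for Myl9 (3605 against 215 CPM) 27 of 28 Acta2-high cells lay above the highest Acta2-low cell, for Tpm2 (2719 against 404) 26 and for Myh11 (1379 against 130.4) 12. The ranges overlapped in 1 or 2 cells for the first 3 genes and widely for Myh11.

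Of 15 contractile genes tested, 10 were called higher in the Acta2-high cells and none lower, with a median log2 ratio of 3.39, or 3.12 with genes absent from the Acta2-low cells set to the floor. The count was 4 in the 19 cells with at most 5% mitochondrial UMIs, where 21 genes of any kind were higher, and 23 of any kind were higher with cells thinned to 3000 UMIs. The list was chosen to hold Acta2's companions, so this count describes how the gene list is ordered along Acta2. Beyond it, the Acta2-high cells were higher in Eln, the elastin of arterial walls (1106 against 79.9 CPM), Lox, the enzyme that crosslinks elastin (133 against 4.21), the cadherin gene Cdh6 (147 against 8.41) and the adhesion gene Bcam (149.9 against 12.6). Of Eln's UMIs, 69.0% came from 3 cells. Fabp4 stood at 2225 against 522, and the endothelin receptor gene Ednrb at 93.3 against 21.0. Il13ra1, a cytokine receptor chain, and the protease gene Prss23 stood at 189.9 and 177 CPM against 4.21 and 4.21. Without the 8 cells rich in Hbb-bs, S100a9, Spp1 or Ighm, Prss23 stood at 188 against 15.4 CPM, and Fabp4 (1896 against 565) and Ednrb (86.7 against 25.7) were within 4-fold. Cnn1, Lmod1 and Nexn had no UMI in the Acta2-low cells and were at least 8.71-fold, 7.66-fold and 9.50-fold higher, each on the floor of 3 counts over the 29 cells.

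Pericyte markers did not separate these ranges at 4-fold: of 16 tested, none was called in either direction and the median log2 ratio was -0.27. Their direction was mixed. Abcc9 stood at 353 CPM in Acta2-high against 849.7 in Acta2-low cells, Kcnj8 at 103 against 290.2, Pdgfrb at 353 against 761 and Des, encoding desmin, at 70.0 against 206. Mcam went the other way, at 863 against 349, as did Gucy1b1, and Notch3 was nearly level at 939.5 against 769.8. Per cell, the Acta2-high and Acta2-low cells overlapped for all 20 pericyte markers, as they did for every contractile gene listed except Acta2. For Mcam 13 of 28 Acta2-high cells lay above the highest Acta2-low cell, and for Notch3 5. Rgs5, one of the 20, had its range cut off by the selection rule.

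**Figure D3:**
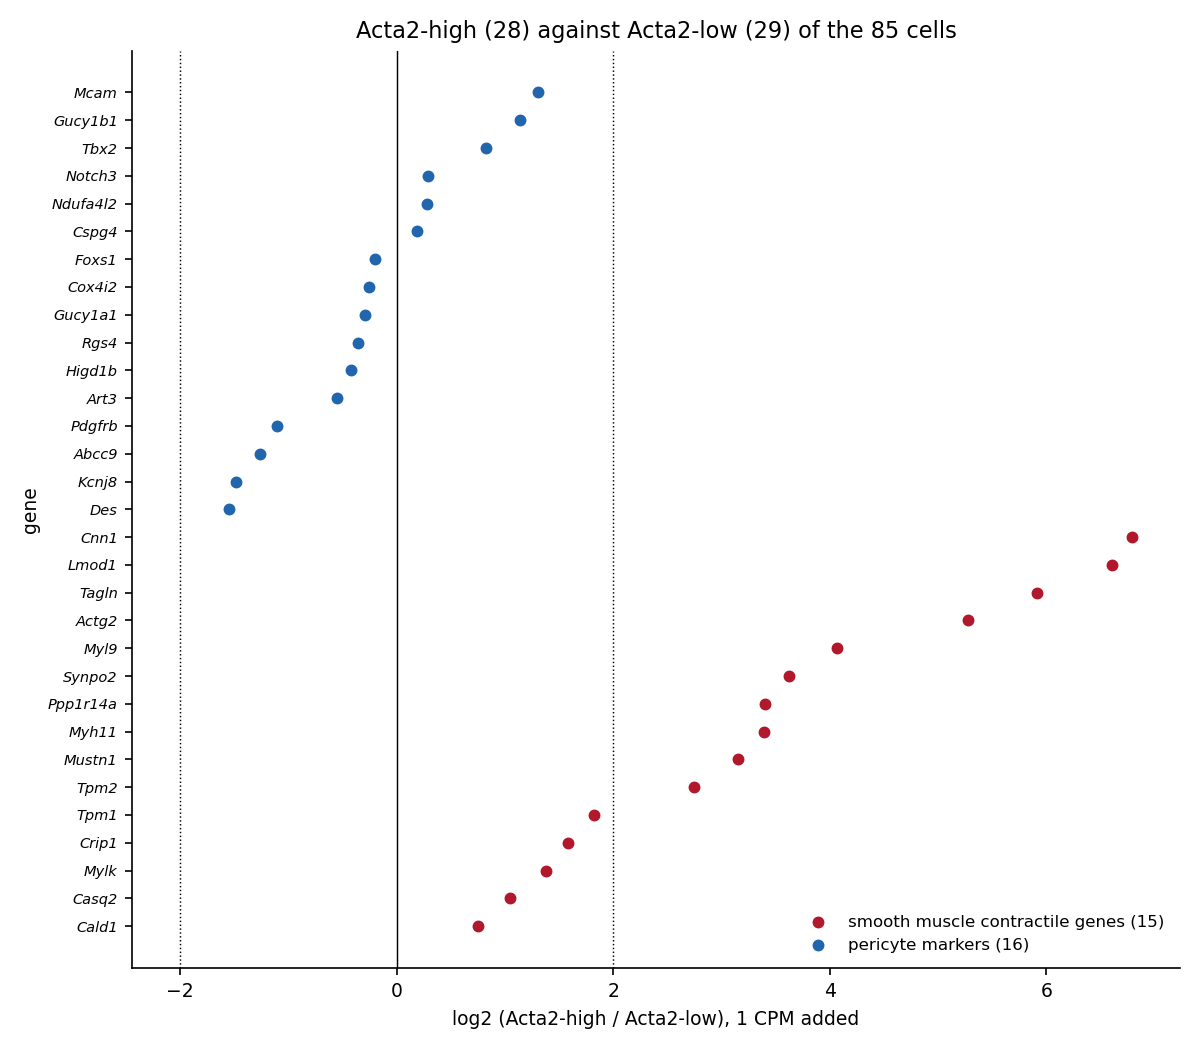
Log2 ratio of the summed level in the 28 Acta2-high cells over the 29 Acta2-low cells (1 CPM added to each) for the contractile genes (red, 15) and pericyte markers (blue, 16) with enough counts; dotted lines mark 4-fold. Of the contractile genes, 10 lie beyond 4-fold upward and no pericyte marker lies beyond it in either direction, with Mcam the highest and Des the lowest of them.

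Genes lower in the Acta2-high cells included Cygb (109.9 against 644 CPM), the channel regulator Kcne4 (13.3 against 96.7) and the matrix gene Tnc (33.3 against 223). The 10 largest folds in that direction (Ighm, Hba-a1, Hbb-bs, Hba-a2, Hbb-bt, Alas2, Tmcc2, Vpreb3, Car2 and Hist1h1c) were mostly haemoglobin and B-lineage genes, and none of them was among the 10 largest without the 8 cells named above. Of the 3 cells with over 1000 Hbb-bs per 10000, 2 were Acta2-low and none Acta2-high. Without the 8 cells, 55 genes were higher and 28 lower, of which 50 and 19 were also called with them, and the leading genes downward, of which Plac8 and Selenop are named after their values were seen, were Plac8, Selenop, Kcne4, Cygb and Tnc. The cells were ranked again after the 8 were left out. Cell cycle genes were also uneven: none of 15 was called against the other cells kept, 2 of 13 (Ube2c and Hmmr) were lower in the Acta2-high cells, and the list summed to 833 CPM there against 2112 in the Acta2-low cells. Mki67, a gene of dividing cells, was seen in 23 of 85 cells.

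Across the 85 cells and 5450 genes, the log levels most like Acta2 were those of Tagln (Pearson r = 0.86), Myl9 (0.83), Tpm2 (0.79), Crip1 (0.70), Actg2 (0.69), Myl6 (0.68), Myh11 (0.68), Tpm1 (0.68), Cavin3 (0.66) and Il13ra1 (0.63). The lowest was Cygb at -0.60, followed by Abcc9 at -0.46. These correlations describe cells of 1 library that differ in depth. For Rgs5, whose range the rule cut off, the most similar gene was Aoc3 at only 0.44. For Abcc9 the most similar included Cygb (0.56), Lamb1 (0.52) and its channel partner Kcnj8 (0.50), again within cells that share the library. The first principal component of the cells held 3.74% of the variance, with Acta2, Tagln, Myl9, Myh11 and Tpm2 at one end and Cygb, Ccl2, Rora and Abcc9 at the other. The second held 3.36%, with Igfbp5 and Tagln at one end and Marcks, Stmn1, Tubb5, Col5a3, Hmgb2 and Adamts2 at the other.

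The reporter was read through WPRE, a sequence downstream of tdTomato in the reporter transcript, with the limit of more than 14 UMIs that the study set from the share of reporter-positive HCs. Of the 85 Rgs5-rich cells, 7 were over the limit, or 8.24% (3.38% to 16.2%). The distribution was split: 65 cells had no WPRE UMI, 12 had 1, 1 had 13 and the 7 cells over the limit had 16 to 36. In comparison 47 of 248 stromal cells (19.0%, 14.3% to 24.4%), 3 of 812 endothelial cells (0.369%, 0.0763% to 1.08%) and none of 136 fibroblasts (exact upper bound 2.68%, or 2.21% by the floor of 3 counts) were over it. Leukocytes, which HCs do not give rise to, showed 28 of 1891 (1.48%, 0.986% to 2.13%), and erythroid cells 15 of 671 (2.24%, 1.26% to 3.66%). The intervals of the Rgs5-rich and erythroid cells overlapped. All of these intervals cover counting error over the cells of 1 mouse, and a difference between groups was not tested. Of the cells over the limit, 14 of the 28 leukocytes, 1 of the 3 endothelial cells and 2 of the 15 erythroid cells were marked as doublets, against none of the 7 Rgs5-rich and none of the 47 stromal cells. Without marked cells the shares were 0.813% (0.445% to 1.36%) in leukocytes, 0.258% in endothelial cells, 2.20% (1.17% to 3.73%) in erythroid cells and 8.33% (3.42% to 16.4%) in Rgs5-rich cells.

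**Figure D4:**
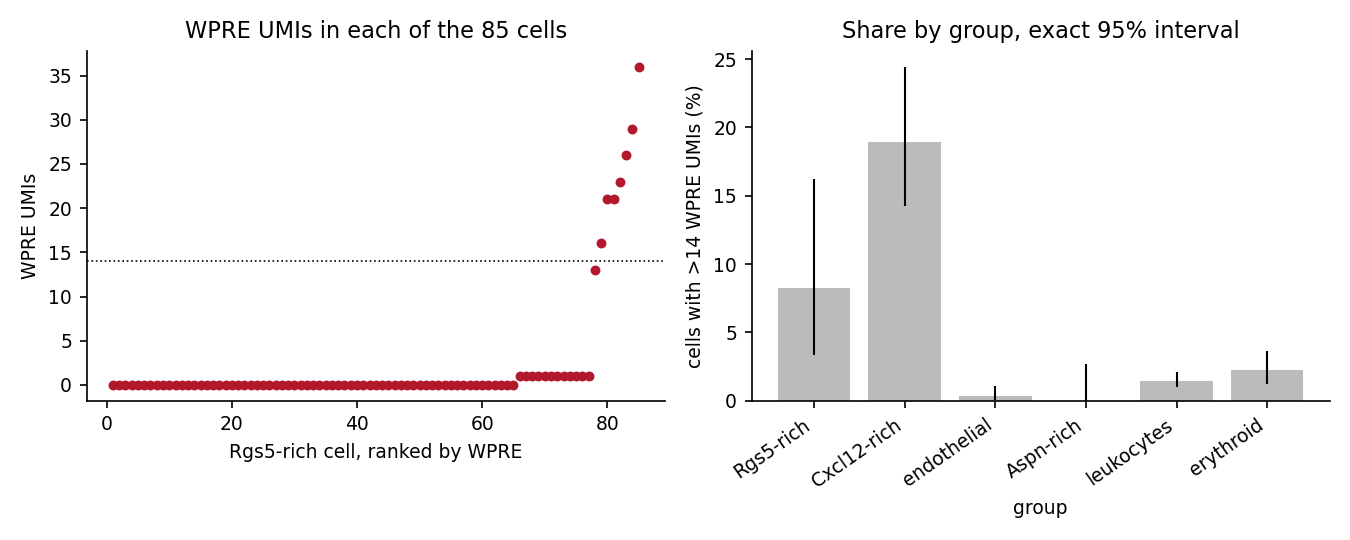
Left, WPRE UMIs in each of the 85 Rgs5-rich cells, ranked, with the limit of 14 UMIs dotted; right, share of cells over the limit in the Rgs5-rich cells and 5 other groups, with exact 95% intervals that cover counting error only. The 7 Rgs5-rich cells over the limit lie between 16 and 36 UMIs and the next at 13, and the share is 8.24% against 19.0% in Cxcl12-rich stromal cells and 0.369% in endothelial cells.

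The 7 cells over the limit had pericyte markers at the level of the rest. Pericyte markers other than Rgs5 summed to 5521 CPM in them and 5591 CPM in the other 78 cells, and Abcc9 stood at 558 and 580.2 CPM. Contractile genes summed to 9007 against 15635 CPM, and the 7 cells were spread over the Acta2-low, middle and high ranges as 3, 2 and 2. Osteoblast markers summed to 794 against 1925 CPM, or 1255 CPM in the 77 of the 78 left without the Spp1-rich cell, and Col10a1, the gene whose promoter drives the Cre, had no UMI in the 7. None of the 7 was marked as a doublet, although 1 of them was among the cells rich in Hbb-bs, and the cell at 13 WPRE UMIs was the Spp1-rich cell. Reads of tdTomato itself were rare: 4 UMIs in 3 cells, all 3 of them over the WPRE limit. With 7 cells of 1 mouse, a difference between them and the other 78 was not tested.

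Genes of the early response to stress stayed within 4-fold of the other cells kept, with 2 exceptions. Of 12 such genes, Hspa1a (163 against 21.8 CPM) and Hspa1b (57.7 against 11.9) were called higher than in the other cells kept, and none was lower. Hspa1a was also called higher than in stromal cells, whereas Hspa1b was called in none of the other 3 comparisons and was no longer called with at most 5% mitochondrial UMIs, at 38.9 against 11.9 CPM. Fibroblasts held 98.9 CPM of Hspa1a and stromal cells 34.6. Hspa1a and Hspa1b, like the pairs Hba-a1 and Hba-a2, Bglap and Bglap2, and Kng1 and Kng2, are near-identical copies whose counts may be split unevenly.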

How the data were processed

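Single cells of P6 tibia were captured on the 10x Chromium platform and the authors aligned reads with Cell Ranger 3.1.0 to mm10 with tdTomato and WPRE added; no annotation release is named, and the labels also list Seurat 3. The values used were UMI counts per gene and barcode, deposited by the authors without normalisation (31053 genes). The study's own filters also removed cells rich in ribosomal RNA and Ptprc-expressing clusters and left fewer cells than the 8705 barcodes with 1600 genes; a P56 library was not analysed here. Counts were summed per group in Python 3.11.15 (numpy 2.4.6, pandas 2.3.3, scipy 1.17.1, scanpy 1.11.5). With 1 library no test was run. Doublets were marked with Scrublet and kept. The summing and calling steps were checked on simulated data. Gene names came from the deposited features, positions from GENCODE M21 (30934 identifiers matched) and sequences from RefSeq (GRCm38.p6). Genes named by rank had at least 100 CPM in the higher group and the largest folds, 20 against all other cells and 10 in each direction of the other comparisons; further genes came from the lists, of which some are not reported here. Members and lists were chosen with earlier results of these data known. Alternatives changed the Rgs5, gene and mitochondrial limits, the added CPM, the filter, depth and the division by Acta2.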

Additional observations from a re-analysis of the deposited data

How the results depend on the processing

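Of 134 alternatives of the main counts and shares, 103 stayed within 1.5 times a count or within the interval of a share and 31 did not. No paired analysis was possible because the 4 sequencing entries were counted as 1 library and no replicate exists. With at most 5% mitochondrial UMIs only 19 Rgs5-rich cells were left; 608 genes were then lower than in fibroblasts and 438 lower than in stromal cells, and between Acta2-high and Acta2-low cells 21 genes were higher (4 of them contractile) and 11 lower. Of 658 alternatives of the levels of 94 named genes 123 left the counting interval, 48 of them at this limit. The named genes kept 65 of 70 calls against the other cells kept, 54 of 59 against stromal cells, 53 of 62 against endothelial cells and 59 of 62 against fibroblasts. Further levels that moved by over 1.5 times were Nr2f2 at 156 CPM, Sparcl1 at 335, Id4 at 126, Tgfb2 at 151, Itga7 and Emcn each at 77.7, Kcnk3 and Rgs2 each at 48.6, Prkg1 at 43.7, Col1a1 at 408, Csf1 and Smtn each at 9.72 and Gja1 at 4.86. With 10 CPM added in place of 1, higher and lower counts were 238 and 216 against the other cells kept, 145 and 150 against stromal cells, 217 and 274 against endothelial cells, and 209 and 221 against fibroblasts, and 29 genes were lower in Acta2-high cells. With no filter on low levels, the counts were 443 and 564 against stromal cells, 651 and 795 against endothelial cells, 757 and 877 against fibroblasts, 1072 lower than in the other cells kept, and 1604 and 1538 between the Acta2 ranges, with 1 pericyte marker higher. Between the Acta2 ranges, 23 genes were higher and 11 lower with cells thinned to 3000 UMIs. The lower genes numbered 21 when the cells were divided into 2 ranges and 31 when ranked by Tagln. They numbered 28 without the 8 cells rich in Hbb-bs, S100a9, Spp1 or Ighm, an alternative chosen after seeing the data. Counting any cell with at least 1 WPRE UMI as reporter-positive raised the share to 23.53%. At that limit leukocytes were counted about as often: 1442 of 1891 had no WPRE UMI, as had 65 of 85 Rgs5-rich cells. Without a WPRE UMI were also 553 of 671 erythroid cells, 106 of 136 fibroblasts, 458 of 812 endothelial cells and 137 of 248 stromal cells. The cause of the changes under these alternatives was not tested. Depth limits the rest: at a median of 8521 UMIs, 34 cells without a Myh11 UMI cannot be told from cells without Myh11 RNA.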
